A study of Mus musculus with 4 samples.

Results

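A set of 10 transcription factor genes that govern the choice between the B cell and the plasma cell state were followed in CH12.F3 cells with and without Mbd4. They were picked by symbol: Pax5, Ebf1, Bach2, Bcl6, Irf8, Spib and Pou2af1 as B cell and germinal centre factors (7 genes), and Irf4, Prdm1 and Xbp1 as plasma cell factors (3 genes). All 10 were measured, each by 1 transcript cluster that the platform's table pairs with that symbol alone, out of 19938 genes measured in this way. CH12.F3 is a mouse B lymphoma line that switches from IgM to IgA in culture, and the Mbd4 KO cells lack Mbd4, a repair glycosylase with a domain for methylated CpG. Mbd4 KO and control cells, 2 arrays of each, had all been grown in 6% serum and treated for 24 hours with IL-4 at 5 ng/ml, TGF-beta at 0.2 ng/ml and CD40L at 25% of the volume. No array of resting cells was analysed here. The series calls the samples of a group independent, but the labels do not say whether they were separate cultures or separate knockout clones, so the p-values rest on a spread between arrays that may be technical only. With 1 knockout label and no rescue, the effect of losing Mbd4 and any other change carried by the same cells cannot be told apart.

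In B cells Pax5 and Ebf1 switch on and hold the B lineage programme, while Spib, Irf8 and the coactivator Pou2af1 support antigen receptor signalling and the germinal centre response. Bcl6 and Bach2 are repressors that keep activated B cells from becoming plasma cells, in part by repressing Prdm1. Prdm1 encodes Blimp-1, which shuts off the B cell programme, Irf4 acts in activation and at high dose drives plasma cell formation, and Xbp1 expands the secretory pathway.

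The targeted gene was lower on both arrays labelled Mbd4 KO, although where its probes lie relative to the deleted part is not known here. Mbd4 had values of 6.47 and 6.49 (log2) in Mbd4 KO cells, against 8.74 and 8.77 in control cells, a difference of -2.28 ± 0.066 (log2, SE; limma adjusted p = 0.0002). Array medians lay between 6.94 and 6.98. Of the B cell markers listed for the check, 8 of 9 were measured and all 8 lay above the median of all values. Their mean level was 10.81 and 10.82 (log2) in Mbd4 KO cells and 10.69 and 10.71 in control cells. None of 6 T cell and 3 NK cell markers reached that median, and 2 of 7 myeloid, 1 of 6 early B cell and 0 of the 1 measured erythroid markers did. The myeloid marker Adgre1 fell by 1.06 on the log2 scale (adjusted p = 0.00311), to 6.58 and 6.67 in Mbd4 KO cells, against 7.69 and 7.68 in control cells. It was the 1 call among 7 myeloid markers, of which 5 lay above zero, with a median of 0.066. Lyz2 (0.24, adjusted p = 0.295) and Itgam (0.10, adjusted p = 0.571) were higher without overlap. The 2 largest differences were those of Cd22 (0.44, adjusted p = 0.0843) and Cd37 (0.34, 0.095) among B cell markers, Cd3g (0.42, 0.254) and Cd4 (-0.19, 0.388) among T cell markers, and Ncr1 (-0.093, 0.693) and Klrb1c (0.086, 0.755) among NK cell markers. The erythroid marker Alas2 differed by 0.19 (adjusted p = 0.293). Whether these marker levels bear on the factors was not tested.

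Of the 10 factors, Bach2 alone passed the threshold, and it fell. Bach2, a leucine-zipper repressor that delays plasma cell formation, had values of 8.003 and 7.939 (log2) in Mbd4 KO cells, against 8.399 and 8.521 in control cells. Both Mbd4 KO arrays were below both control arrays. In RNA from a whole culture, fewer cells that express a gene and less RNA per cell cannot be told apart. The means were 7.97 ± 0.045 in Mbd4 KO cells and 8.46 ± 0.086 in control cells (SD, n = 2 each). Bach2 thus differed by -0.49 ± 0.076 (log2, SE), or 1.40-fold, and limma gave it an adjusted p of 0.0492 over all 21789 clusters. That is 1 call in 10 genes, while 1.39% of all clusters were called, 0.955% as lower and 0.431% as higher. The call sits just inside the threshold of 0.05 and was lost with any 1 array left out (adjusted p = 0.157 to 0.241) and in the fit with a replicate block (0.096). Over the 12 alternatives the difference ran from -0.55 to -0.43, but most of them could not change its sign. Settings that alter only the variance model or the clusters tested keep the difference as it was. With groups that do not overlap, leaving out an array must also keep it negative. Only the normalizations could have changed the sign, and they gave -0.49 (quantile) and -0.50 (cyclic loess). Leaving out an array leaves its group with 1, which is then assumed to vary like the other group. Bach2os, a noncoding gene annotated within the Bach2 locus, had overlapping values, 6.33 and 6.54 in Mbd4 KO cells and 6.53 and 6.43 in control cells (adjusted p = 0.892).

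Bcl6, the zinc-finger repressor required for germinal centres, was the 1 factor with both Mbd4 KO arrays above both control arrays. Its values were 5.67 and 5.59 (log2) in Mbd4 KO cells and 5.37 and 5.35 in control cells. The difference of 0.27 ± 0.069 (log2, SE) did not pass (limma adjusted p = 0.167). The cluster was dim: its control values lay under the lower quartile of those arrays (5.63 and 5.64), and the Mbd4 KO values lay on either side of theirs (5.64 for both). The filter on dim clusters removed it, and signal over background could not be assessed. The opposite differences of the repressors Bach2 and Bcl6 come from 1 fit, and the difference between them was not tested.

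**Figure D1:**
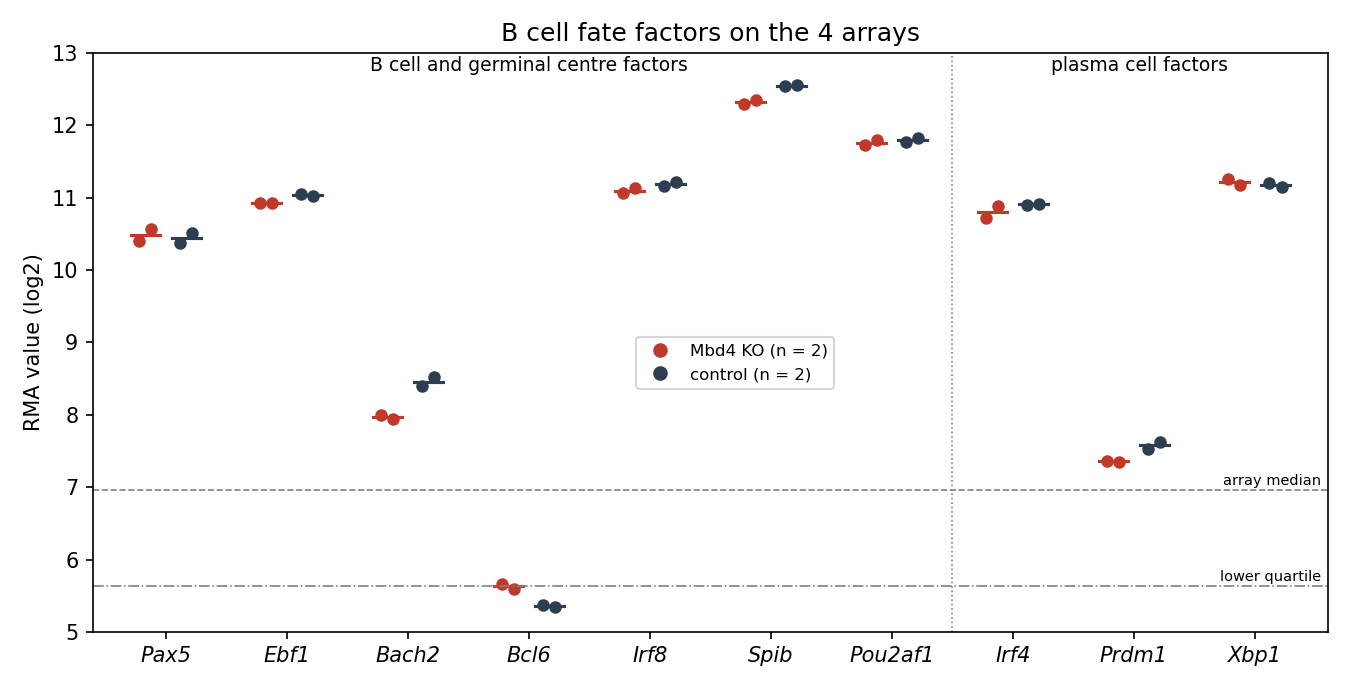
RMA values (log2) of the 10 factors on each array, with a bar at the mean of the 2 arrays of a group, Mbd4 KO in red to the left of control in dark blue. The Mbd4 KO points of Bach2 (8.003 and 7.939) lie clear of the control points (8.399 and 8.521), while Pax5, Pou2af1 and Xbp1 overlap. The height of a gene depends on its probes and does not order the genes by abundance.

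Among the lineage factors, Spib, an ETS-family factor related to PU.1, showed the widest gap. Spib had values of 12.30 and 12.35 (log2) in Mbd4 KO cells, against 12.54 and 12.55 in control cells. The groups did not overlap, but the difference of -0.22 ± 0.067 (log2, SE) did not pass (limma adjusted p = 0.236). It was called when the variance prior was allowed to follow intensity (adjusted p = 0.00503), a setting that called 1121 of all clusters in place of 302.

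Ebf1, the early B cell factor, had values of 10.92 and 10.92 (log2) in Mbd4 KO cells, against 11.05 and 11.02 in control cells, a difference of -0.11 (adjusted p = 0.515). Irf8, an interferon regulatory factor of germinal centre B cells, had 11.06 and 11.13 in Mbd4 KO cells and 11.17 and 11.22 in control cells, a difference of -0.097 (adjusted p = 0.603). In both genes the Mbd4 KO arrays were lower without overlap, by amounts that limma did not separate from the spread between arrays. Pou2af1, the coactivator that binds octamer factors, overlapped, with 11.73 and 11.79 in Mbd4 KO cells and 11.78 and 11.82 in control cells (difference -0.038, adjusted p = 0.862). Pax5, the paired-box factor that commits cells to the B lineage, had 10.40 and 10.57 in Mbd4 KO cells and 10.37 and 10.51 in control cells. Its difference was 0.042, with a 95% interval of -0.18 to 0.26 (adjusted p = 0.885), and it turned negative without control array 1 (-0.026) or Mbd4 KO array 2 (-0.040). The 95% interval of Pou2af1 ran from -0.21 to 0.13, that of Ebf1 from -0.27 to 0.046 and that of Irf8 from -0.27 to 0.073, so differences within these bounds are not excluded. Leaving out 1 array moved Pou2af1 to between -0.070 and -0.0059 and Irf8 to between -0.13 and -0.064.

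None of the 3 plasma cell factors passed, and 1 had an unadjusted limma p under 0.05, as had 3013 of all 21789 clusters. Prdm1, which encodes Blimp-1, had values of 7.36 and 7.35 (log2) in Mbd4 KO cells, against 7.53 and 7.63 in control cells. The Mbd4 KO arrays were the lower ones, as they were for Bach2, a repressor of Prdm1. The difference was -0.22 ± 0.071 (log2, SE; limma adjusted p = 0.258), with a 95% interval of -0.39 to -0.046. Irf4, an interferon regulatory factor shared by activated B cells and plasma cells, had 10.73 and 10.89 in Mbd4 KO cells and 10.90 and 10.92 in control cells. Its difference was -0.10 ± 0.080 (adjusted p = 0.639), and Mbd4 KO array 1 held most of it: the difference was -0.023 without that array and -0.18 without Mbd4 KO array 2. Xbp1, the secretory pathway factor, overlapped, with 11.26 and 11.18 in Mbd4 KO cells and 11.20 and 11.14 in control cells (difference 0.050 ± 0.071, adjusted p = 0.812). Its difference was 0.0071 without Mbd4 KO array 1, 0.092 without Mbd4 KO array 2, 0.077 without control array 1 and 0.023 without control array 2. A single value per array cannot separate the spliced, active Xbp1 mRNA from the unspliced form.

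**Figure D2:**
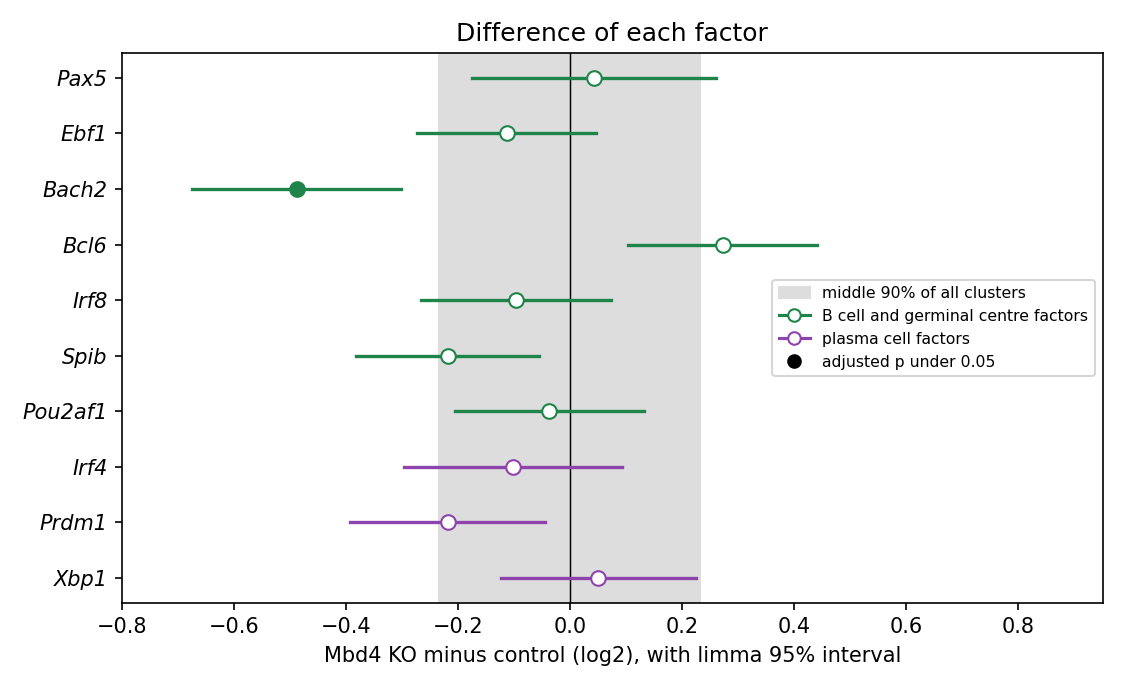
Difference of each factor, Mbd4 KO minus control (log2), with limma's 95% interval and a filled point where the adjusted p was under 0.05. The grey band, from -0.24 to 0.23, holds the middle 90% of all clusters: Bach2 (-0.49) lies below it, Bcl6 (0.27) above it and the other 8 factors inside it.

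Set side by side, the classes had nearly the same median. It was -0.097 (log2) over the 7 B cell and germinal centre factors, ranging from -0.49 to 0.27, and -0.10 over the 3 plasma cell factors, ranging from -0.22 to 0.050, beside a median of 0.021 over all clusters. In the B cell class 5 of 7 differences were below zero and in the plasma cell class 2 of 3, and the median of each class was below zero. The B cell median was -0.064 without Mbd4 KO array 1 and -0.11 without Mbd4 KO array 2. The plasma cell median rests on 3 genes: it was -0.023 without Mbd4 KO array 1 and -0.18 without Mbd4 KO array 2. Arrays of the groups did not overlap for 7 of the 10 factors, 1 higher and 6 lower. Over all clusters 45% did not overlap, 26.7% higher and 18.3% lower, and 4 factors (Bach2, Bcl6, Spib and Prdm1) had an unadjusted p under 0.05, as had 3013 of the 21789 clusters. Whether the classes differ was not tested.

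The promoters of those 4 factors are shown because Mbd4 binds methylated CpG sites, and the CpG sites in them are in capitals. Each is the run of 250 bases before the gene's first listed start in RefSeq, GRCm38.p6, read 5′ to 3′ on the gene's strand. The windows are chr4:32417185-32417434 (plus strand) for Bach2, chr16:23988853-23989102 (minus) for Bcl6, chr7:44532072-44532321 (minus) for Spib and chr10:44458749-44458998 (minus) for Prdm1. Those of Bach2 and Prdm1 lie inside the annotated genes, downstream of the outermost annotated start.
Bach2: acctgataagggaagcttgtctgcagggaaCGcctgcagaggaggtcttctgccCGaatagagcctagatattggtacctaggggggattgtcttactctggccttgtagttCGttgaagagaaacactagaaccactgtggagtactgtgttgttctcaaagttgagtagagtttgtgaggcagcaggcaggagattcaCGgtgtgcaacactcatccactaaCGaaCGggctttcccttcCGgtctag
Bcl6: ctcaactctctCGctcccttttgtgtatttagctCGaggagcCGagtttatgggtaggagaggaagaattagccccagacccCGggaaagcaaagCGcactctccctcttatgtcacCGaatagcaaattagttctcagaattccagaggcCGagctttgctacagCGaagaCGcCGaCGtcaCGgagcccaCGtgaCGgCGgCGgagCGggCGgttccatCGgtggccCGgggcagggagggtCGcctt
Spib: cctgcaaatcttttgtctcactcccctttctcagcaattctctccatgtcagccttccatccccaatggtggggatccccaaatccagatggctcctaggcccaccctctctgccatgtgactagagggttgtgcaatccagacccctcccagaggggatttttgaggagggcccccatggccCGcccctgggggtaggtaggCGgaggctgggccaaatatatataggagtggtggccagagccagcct
Prdm1: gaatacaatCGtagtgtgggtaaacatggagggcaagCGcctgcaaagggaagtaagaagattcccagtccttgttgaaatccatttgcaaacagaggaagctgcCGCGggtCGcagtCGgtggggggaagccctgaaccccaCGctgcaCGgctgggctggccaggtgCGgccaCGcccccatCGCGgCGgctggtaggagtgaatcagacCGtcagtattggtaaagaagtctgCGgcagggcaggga
Bach2 held 7 CpG sites, Bcl6 held 21, Spib held 2 and Prdm1 held 15, beside a median of 6 over 32851 such windows. For Bcl6, Irf8 and Ebf1 a second window was also counted: these held 13, 8 and 14 CpG sites, beside 21, 29 and 9 in the first. For the rest 1 window was counted, although Bach2 and Prdm1 have a further annotated start. The other factors had 19 in Pax5, 5 in Pou2af1, 11 in Irf4 and 8 in Xbp1. A loose form of the core of Bach and Maf sites, TGANTCA with any base at N, was searched on both strands. It matched once, in Prdm1, where the letters read TGAATCA, and was held by 6.75% of all windows. The match does not show a Bach site. The octamer ATGCAAAT, the site of the partners of Pou2af1, matched in none of the factors' windows and in 1.6% of all windows. Also searched on both strands, AANNGAAA, of IRF factors, matched 2 times in Bach2, 2 and 1 times in the windows of Ebf1, and 1 time in the second window of Bcl6, and was held by 21.3% of all windows. CCCNNGGG, of Ebf1, matched in Spib alone and was held by 11.8%. Its 2 matches there overlap within a single stretch, cccctggggg, so they are not separate sites. No methylation or binding was measured, so the letters are a description of the windows alone.

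Gene order around the factors was looked at because many genes of chromosome 16, which carries Bcl6, were lower in Mbd4 KO cells. The median difference was -0.11 (log2) over 648 chromosome 16 genes, beside 0.021 over all clusters. Of the 648, 1 was called higher and 36 lower, beside 0.431% and 0.955% of all clusters. Bcl6, at 0.27, stood above all 20 measured neighbours, 10 on each side, whose median was -0.020 and whose highest value was 0.13. The next measured gene to Bcl6 is Lpp, which encodes a LIM-domain protein of focal adhesions. In its brightest cluster Lpp fell by 1.88 (log2; limma adjusted p = 0.00535), to 6.17 and 6.51 in Mbd4 KO cells, against 8.07 and 8.37 in control cells. Around Bach2, on chromosome 4, the 20 neighbours had a median of 0.035, ranged from -0.28 to 0.26, and none was called. Bach2 (-0.49) thus lay below all 20. A called neighbour was not particular to Bcl6. Ebf1 and Prdm1 each also had 1 among 20, called lower, beside 0.955% of all clusters called lower. The other factors had none.

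Other transcription factors of the B cell network contained larger differences than the 10. Of 29 listed, 26 were measured and 3 passed, 1 higher and 2 lower, beside 1.39%, 0.431% and 0.955% of all clusters. The median over the list was -0.087. Zeb2, a zinc-finger E-box repressor, fell by 0.92 ± 0.065 (log2, SE), with an adjusted p of 0.00394 by limma. Its values were 7.91 and 7.94 in Mbd4 KO cells, against 8.85 and 8.86 in control cells, without overlap. With each array left out in turn, and a lone array in its group, the adjusted p was 0.0397 to 0.047. Id3, an inhibitor of E-protein factors, fell by 0.78 (adjusted p = 0.00903), to 8.53 and 8.62 in Mbd4 KO cells, against 9.38 and 9.34 in control cells. Lef1, an HMG-box effector of Wnt signalling in early B cells, rose by 0.69 (adjusted p = 0.0154), to 8.89 and 8.78 in Mbd4 KO cells, against 8.14 and 8.16 in control cells. With any 1 array left out, limma called neither Id3 (adjusted p = 0.0586 to 0.0854) nor Lef1 (0.0747 to 0.113). Bach1, the paralog of Bach2, differed by 0.11 (adjusted p = 0.533), and Mafk, which pairs with both, by 0.11 (adjusted p = 0.597). Spi1, which encodes PU.1, the paralog of the Spib product, differed by 0.095 (adjusted p = 0.72).

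Of the genes that Pax5 and Ebf1 are known to activate, 12 were measured and 2 passed, both lower, beside 0.955% of all clusters called lower. The median was -0.017, with 6 differences above and 6 below zero. The median size of a difference was 0.31, beside 0.082 over all clusters. Of the 12, 7 had an unadjusted limma p under 0.05, beside 3013 of all 21789 clusters. These 12 genes, like the members of the other lists, were chosen with earlier results of these data known. Comparisons of the lists with all clusters are therefore descriptions and not tests. Arrays did not overlap for 5 higher and 6 lower genes, beside 26.7% and 18.3% of all clusters. Vpreb3, related to the surrogate light chain, fell by 0.79 (adjusted p = 0.0101), to 9.82 and 9.94 in Mbd4 KO cells, against 10.69 and 10.65 in control cells. Cd72, a B cell co-receptor, fell by 0.67 (adjusted p = 0.0155), to 10.67 and 10.77 in Mbd4 KO cells, against 11.39 and 11.40 in control cells. Limma called neither with any 1 array left out (adjusted p = 0.0584 to 0.0867 for Vpreb3 and 0.0773 to 0.117 for Cd72). Cd22, an inhibitory co-receptor, differed by 0.44 (adjusted p = 0.0843) and the kinase gene Blk by 0.31 (0.113), while Blnk, an adaptor of the receptor, differed by -0.28 (0.15). Of 7 genes listed as repressed by Pax5, 6 were measured. The list does not claim to hold every such gene, and Jchain, described below among plasma cell genes, was not in it. Limma called none of the 6 measured, and 1 had an unadjusted p under 0.05. The largest difference was that of the costimulatory receptor gene Cd28 (0.20, adjusted p = 0.3), followed by the kinase receptor gene Flt3 (-0.12, adjusted p = 0.649). Flt3 had 6.26 and 6.44 in Mbd4 KO cells and 6.56 and 6.38 in control cells. Its difference was -0.033 without control array 1, -0.21 without control array 2, -0.032 without Mbd4 KO array 1 and -0.21 without Mbd4 KO array 2.

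Genes known as targets of the repressors were not called. Over all clusters, 3013 of 21789 had an unadjusted limma p under 0.05. Of 10 genes that Bach factors repress through Maf recognition elements none passed, 2 had an unadjusted p under 0.05, 5 lay above and 5 below zero, and the median was -0.0039. Hmox1, the heme oxygenase gene and the best known of them, had 9.27 and 9.09 (log2) in Mbd4 KO cells and 9.21 and 9.24 in control cells, with overlap. The largest differences were those of Nqo1, a quinone reductase (-0.29, adjusted p = 0.254), and Slc48a1, a heme transporter (0.23, adjusted p = 0.225). Of 12 measured genes that Bcl6 represses none passed and 5 had an unadjusted p under 0.05. Their median was -0.033, with 6 on each side of zero, and their median size was 0.16, beside 0.082 over all clusters. The costimulatory gene Cd80, on chromosome 16, had the largest difference (-0.34, limma adjusted p = 0.101). The lipid receptor gene S1pr1 came next (0.32, adjusted p = 0.15).

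Genes of the germinal centre and plasma cell states had medians near zero, with differences on both sides of it. The median size of a difference was 0.16 in the germinal centre list and 0.17 in the plasma cell list, beside 0.082 over all clusters. Of the 12 genes measured in each list, 4 had an unadjusted limma p under 0.05, beside 3013 of all 21789 clusters. In the germinal centre list 0 of 12 measured passed by limma, and the median was -0.018. There, arrays did not overlap for 4 higher and 5 lower members, beside 26.7% and 18.3% of all clusters. Fas, which encodes a death receptor, had a difference of -0.51 (adjusted p = 0.0744) and the glycosylase gene Neil1 one of -0.38 (0.206). In the plasma cell list 1 of 12 passed, as higher, beside 0.431% of all clusters, and the median was 0.050. Arrays did not overlap for 7 higher and 2 lower members, beside 26.7% and 18.3% of all clusters. Jchain, the joining chain of secreted IgA and IgM, rose by 0.43 (SE 0.065; limma adjusted p = 0.045), to 12.77 and 12.76 in Mbd4 KO cells, against 12.33 and 12.33 in control cells. Limma did not call it with any 1 array left out (adjusted p = 0.21 to 0.228), with the replicate block (0.0891), over all clusters of the table (0.189) or without chromosome 16 (0.0507). Sdc1, the plasma cell surface marker CD138, had 6.54 and 6.54 in Mbd4 KO cells and 6.51 and 6.23 in control cells (adjusted p = 0.546), values below the array medians. Cd93, a plasma cell maintenance receptor, differed by 0.25 (adjusted p = 0.184).

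Among the secretory pathway genes that Xbp1 induces, 25 of 26 were measured and all 25 lay above the median of all values. None passed by limma, 2 had an unadjusted p under 0.05, beside 3013 of all 21789 clusters, and the median was -0.026. Their differences were small, with a median size of 0.054 beside 0.082 over all clusters. The largest were those of the chaperone gene Dnajb11, on chromosome 16 (-0.43, adjusted p = 0.0734), and the translocon gene Sec61b (0.23, adjusted p = 0.377). Hspa5, the chaperone BiP, had 12.03 and 12.03 in Mbd4 KO cells and 12.22 and 12.01 in control cells, with overlap (adjusted p = 0.734).

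**Figure D3:**
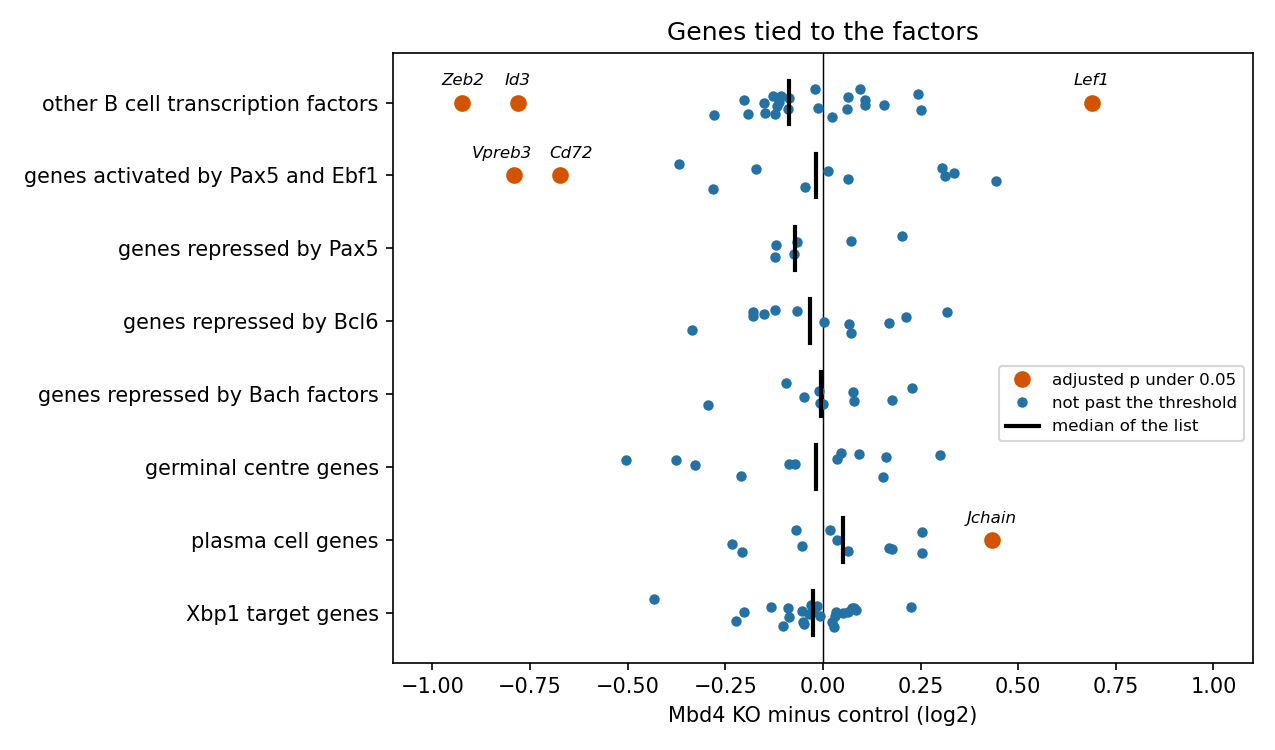
Difference of each measured gene in 8 lists tied to the factors, Mbd4 KO minus control (log2), 1 point a gene by its brightest cluster, with a black bar at the list's median. Orange points passed limma's threshold: Zeb2, Id3 and Lef1 among other transcription factors, Vpreb3 and Cd72 among genes activated by Pax5 and Ebf1, and Jchain among plasma cell genes. The medians lie between -0.087 and 0.050.

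How the calls moved with the settings is shown for the 3 factors with the most negative differences. Bach2 was under 0.05 as reported and in 3 of 12 alternatives: an intensity trend in the prior (0.00441), removal of the dimmest 30% of clusters (0.018) and cyclic loess normalization (0.0469). Spib was under it in 1 and Prdm1 in none, with a lowest value of 0.142.

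**Figure D4:**
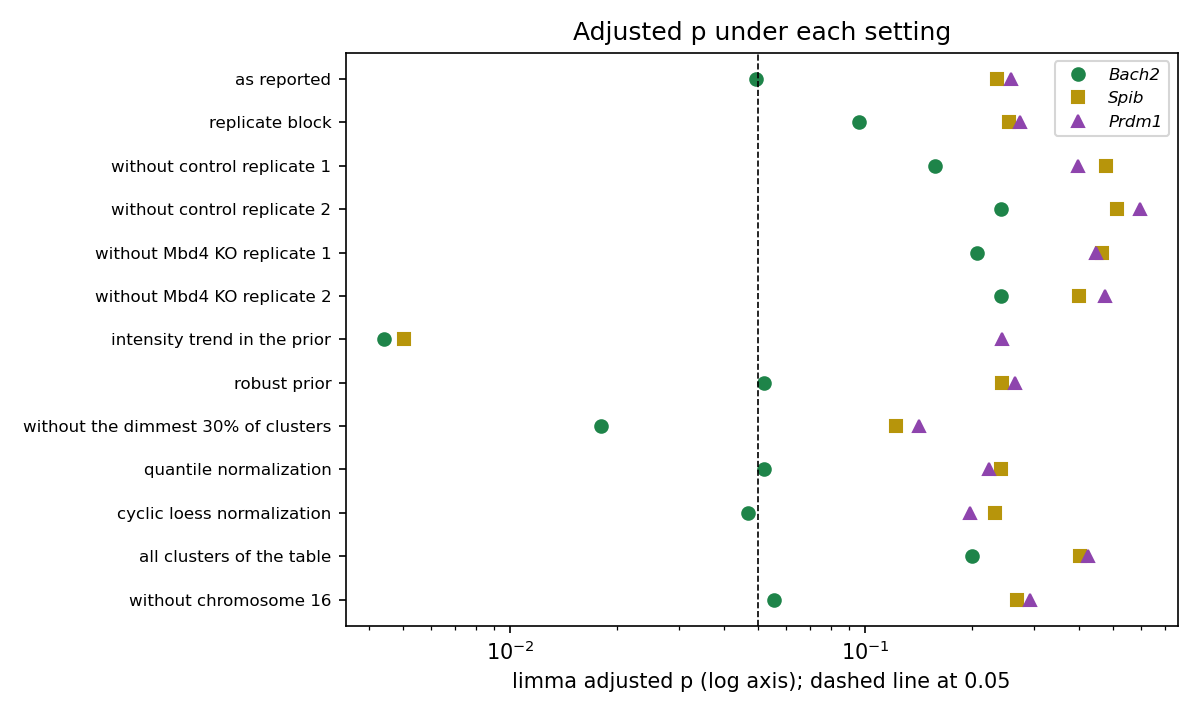
Adjusted p (log axis) of Bach2, Spib and Prdm1 as reported and under each of 12 alternatives, with a dashed line at 0.05. Bach2 lies left of the line as reported and in 3 alternatives, and right of it, up to 0.241, in the other 9.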

How the data were processed

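RNA of CH12.F3 cells was hybridised to 4 whole-transcript arrays. Each array has 1 deposited log2 value per transcript cluster. The submitters' processing notes name RMA as the method the authors used, with the version not given in the sources used here. Raw intensity was not used here. Of 35556 clusters, 21789 have 1 gene symbol and were tested, with symbols updated through the gene identifiers of RefSeq (21698 matched). Groups were compared by limma 3.58.1 in R 4.3.3 (lmFit, eBayes, 2 residual and 4.0 prior degrees of freedom), as a two-sided test without a filter. The Benjamini-Hochberg adjustment ran over the 21789 clusters, with a threshold of 0.05. The number of arrays limits precision: an exact permutation test of 1 value allows no p below 0.333. Lists use each gene's brightest cluster. The members and lists were chosen with earlier results of these data known. Genes named are all members, Mbd4, and per list the members that passed and those with the 2 largest differences, plus called neighbours of Bcl6 and Bach2. Bach2os, Bach1, Mafk, Spi1, Itgam, Blk, Blnk, Hmox1, Sdc1, Hspa5, Kit and Rag1 were named for their role outside that rule, with values in view. Limma was also tested on simulated data for this comparison (21789 clusters, 200 changed). It recovered 0% of log2 changes of 0.25, 26% of 0.5, 92% of 1 and 100% of 2, with 7 false calls. Replicate numbers were checked for pairing: deviations of same-numbered arrays correlated at 0.083, with 2 pairs. Alternatives were a replicate block, each array left out, an intensity trend, a robust prior, cyclic loess or quantile normalization, a filter on dim clusters, the whole table, and no chromosome 16. Figures used matplotlib 3.10.9.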

Additional observations from a re-analysis of the deposited data

How the results depend on the processing

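The number of clusters called, 302 as reported, was 159 with the replicate block, 1121 with an intensity trend, 640 without the dimmest 30% of clusters, 22 over all clusters of the table, and 65 to 75 with any 1 array left out. The median of the plasma cell factors ran from -0.18 to -0.023 when 1 array was left out, and that of the B cell and germinal centre factors, -0.097 as reported, from -0.11 without Mbd4 KO array 2 to -0.064 without Mbd4 KO array 1. The paired fit ended the call of Bach2 (adjusted p = 0.096) and that of Jchain (0.0891). The 2 replicate numbers give too few pairs to show that they pair the arrays. Bach2 also lost its call with the robust prior (0.0521), quantile normalization (0.0521), all clusters (0.2) and without chromosome 16 (0.0555). The cause was not tested. Pax5 changed sign without control array 1 (adjusted p = 0.959) and without Mbd4 KO array 2 (0.913), as did the NK cell markers Klrb1c without control array 1 (0.945) and Ncr1 without Mbd4 KO array 1 (0.999). With 1 array left out their adjusted p ran from 0.677 to 0.959 for Pax5, 0.549 to 0.945 for Klrb1c and 0.5002 to 0.999 for Ncr1. Of the genes named here that are not members, 9 were called. Among these 9, Mbd4, Zeb2, Adgre1 and Lpp stayed called with each array left out in turn. Over all clusters of the table limma called Mbd4 alone of the named genes. The class median of the B cell factors could not be had without dim clusters or without chromosome 16, since Bcl6 drops out. With 2 arrays a group, changes under 0.5 on the log2 scale are mostly beyond reach, and how far the dim cluster of Bcl6 stood above background is unknown.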

Other observations

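Zeb2os, an opposite-strand gene of Zeb2 by its name chosen after its values were seen, had 6.33 and 6.13 (log2) in Mbd4 KO cells, against 6.77 and 6.60 in control cells, without overlap, a difference of -0.46 (limma adjusted p = 0.116). Of 6 early B cell markers, 1 reached the median of all values and none was called. Igll1, of the surrogate light chain, had 6.72 and 6.64 in Mbd4 KO cells, against 6.35 and 6.33 in control cells (difference 0.34, adjusted p = 0.101). Vpreb1, its partner, had 7.23 and 7.19 in Mbd4 KO cells and 7.10 and 6.70 in control cells (difference 0.31, adjusted p = 0.383). The kinase receptor gene Kit was lower without overlap (-0.18, adjusted p = 0.342) and Rag1, of the recombinase, overlapped (-0.12, adjusted p = 0.72).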
